A study of Mus musculus with 21 samples.

Results

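Bone marrow progenitors that carried the label CFUe were compared with those labeled PreMegE, the step that follows the earliest erythroid-megakaryocytic progenitor on the way to red cells. The comparison used 6 of the 21 arrays of the series, 3 for each fraction, chosen by their titles alone. Cells came from the bone marrow of C57BL/6 mice that had received no treatment named in the labels, which give neither age nor sex, and total RNA was hybridized with 1 Cy3-labeled sample per array. Per the labels, both fractions were lineage-negative and positive for c-Kit and Sca1, lacked CD105 and Fc gamma receptors, and differed in CD150, which PreMegE carried and CFUe did not. The lineage panel that was removed from both included CD41, the product of Itga2b, and Ter119. The gate written for CFUe is the one the labels also give for PreGM, an early myeloid fraction, so transcripts of the gate antigens and of the CFU-E stage are described below.

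PreMegE cells are known to give rise to both megakaryocytes, the parents of platelets, and erythroid cells, whereas a CFU-E is a progenitor committed to red cells that depends on erythropoietin. Erythropoietin acts through its receptor on the JAK2 kinase and the transcription factor STAT5. Heme is made in a chain of enzymes that starts and ends in mitochondria, and is joined to globin late in maturation, when the membrane skeleton of spectrin and ankyrin is also laid down.

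Levels are log2 signals after subtraction of the array's own 75th percentile, which is therefore 0, and a change is the CFUe mean minus the PreMegE mean. Calls needed at least a 2-fold change and an adjusted p below 0.05 (limma across all 21 arrays, Benjamini-Hochberg adjustment over the probes tested). Of 29532 probes tested, 2869 were called higher in CFUe (9.71%) and 4398 lower (14.9%). With 1 probe per symbol this came to 1625 of 14315 genes called higher (11.4%) and 2060 called lower (14.4%). These shares are the background for the gene groups below. The arrays of the fractions did not overlap for 8482 of the 14315 genes, so lack of overlap was common. Scaling to spike-in RNAs instead of the percentile moved the changes down by 0.51, and left 838 probes higher and 7214 lower, so that 10.4% of calls were higher in place of 39.5%. The median change of all genes was 0.18 with the percentile and -0.32 with the spike-ins. Between 56.2% and 69.3% of probes were well above background on the 6 arrays. Nothing in the labels says that the arrays came from separate mice, so the p-values measure the spread between these samples only. In sorted populations, fewer cells of a type and less RNA per cell cannot be told apart.

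One array stood apart from its group. CFUe replicates 1 and 2 correlated with each other at 0.988 across probes and with replicate 3 at 0.977 and 0.978, while the correlation with PreMegE arrays was 0.926 to 0.937 for replicate 3 and 0.901 to 0.916 for the other two. Among the 2060 genes called lower, replicate 3 lay above both other CFUe arrays in 1493 and below both in 267, with a median difference of 0.61. Among the 1625 called higher it lay above both in 425 and below both in 683, with a median difference of -0.04. Cd34, a marker of immature progenitors, read 0.60 in replicate 3 against -3.20 and -3.85. The source mice also differed, as Xist, transcribed from the inactive X chromosome, read 4.94 and 5.10 in CFUe replicates 1 and 2 and -4.46 in replicate 3. All PreMegE arrays read -5.34 or less for Xist, and Ddx3y of the Y chromosome ran the other way. Without CFUe replicate 3, 1678 genes were called higher and 2175 lower, which included 1502 (92.4%) and 1980 (96.1%) of the genes called with it. That leaves CFUe arrays with Xist against PreMegE arrays without it, so sex and fraction cannot be told apart in these counts. With the level of Y-linked transcripts as a covariate on all arrays, 1589 genes were called higher and 1905 lower. Counts without CFUe replicate 3 are given below for the groups where they matter most.

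Transcripts of the CFU-E stage separated the fractions, in a list chosen with earlier results of these data known. Its counts describe the fraction and are no independent check of the label. Of the 12 genes, 11 were called higher in CFUe and none lower, with a median change of 2.08. The summed linear level (in units of the 75th percentile) was 205 to 218 on the PreMegE arrays and 825 to 900 on the CFUe arrays. The exception was Eng, which encodes CD105 and read 2.16, 2.28 and 2.08 in PreMegE and 2.36, 2.52 and 2.57 in CFUe, a change of 0.31 that missed the 2-fold limit. Slamf1, which encodes CD150, read 0.23, 0.44 and 0.38 in PreMegE and in CFUe none of the 3 arrays was well above background, so the level was at least 36.8-fold lower. Ly6a, which encodes Sca1, was low in both, at -2.89, -3.14 and -3.33 in PreMegE and -6.10, -6.82 and -4.47 in CFUe (well above background on 1 of 3 arrays). The transcripts thus followed the labels for CD150. They went against them for Sca1, low in fractions labeled positive, and for CD105, whose transcript stood above the 75th percentile in fractions labeled negative. The gene for c-Kit was not analysed here.

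The megakaryocyte program was lost broadly. Of 67 megakaryocyte and platelet genes tested, 50 were called lower and 1 higher, with a median change of -2.83 (-2.21 with genes below background at their bounds), against 14.4% lower over all genes. The median of the list relative to PreMegE was -3.0 on CFUe replicates 1 and 2 and -2.24 on replicate 3, and 52 were lower without replicate 3. The pair of arrays on 1 slide, CFUe replicate 2 and PreMegE replicate 1, gave a median of -2.99, and the spike-in scaling called 56 lower. Normexp background correction, which shrinks changes of dim probes, gave 41 lower and a median of -1.51. The loss covered each role: 12 of 13 adhesion receptors, 14 of 19 agonist receptors and signaling proteins, 11 of 13 granule proteins, 6 of 11 genes of granule and platelet formation and 7 of 11 transcription factors.

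**Figure D1:**
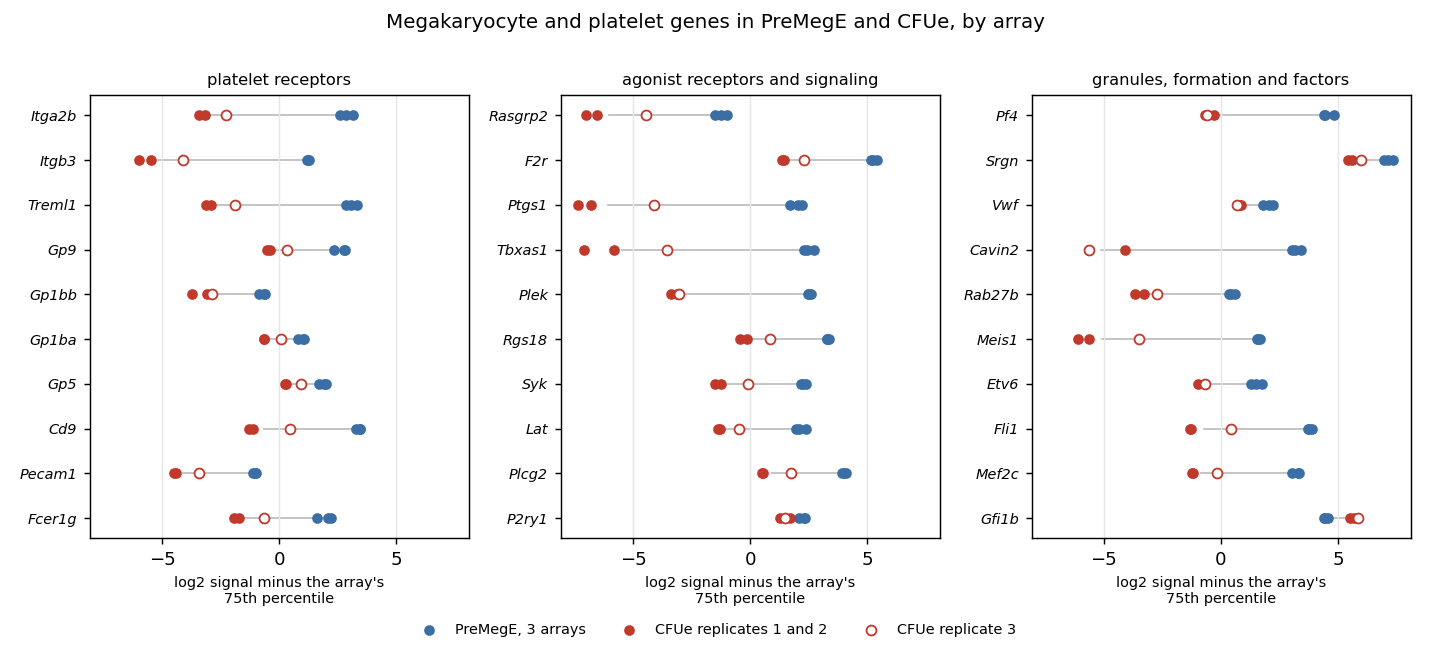
Level of 30 megakaryocyte and platelet genes on each of the 6 arrays, in log2 signal minus the 75th percentile of the array; blue points are PreMegE, filled red points CFUe replicates 1 and 2, the open red point CFUe replicate 3, and grey lines join the means of the fractions. All genes but Gfi1b lay lower in CFUe, and replicate 3 was the CFUe array nearest to PreMegE for most of them.

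Among adhesion receptors, the genes of the platelet fibrinogen receptor fell most. Itga2b (CD41, integrin alpha IIb) read 2.60, 2.85 and 3.15 in PreMegE and -3.44, -3.15 and -2.28 in CFUe, a 56.7-fold fall (adjusted p = 2.8e-11), although CD41-positive cells had been removed from both fractions. Its partner Itgb3 read 1.21, 1.26 and 1.16 and then -5.49, -5.98 and -4.09, with 1 CFUe array well above background. Treml1, a receptor of platelet alpha granules, read 3.06, 3.30 and 2.85 and then -3.12, -2.93 and -1.87. The groups did not overlap for any of these, as for 8482 of all 14315 genes tested. CFUe replicate 3 was the highest CFUe array each time.

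The receptor for von Willebrand factor was reduced less, and its subunits were still measured in CFUe. Gp9 read 2.75, 2.80 and 2.32 in PreMegE and -0.55, -0.38 and 0.31 in CFUe, a change of -2.83. Gp1bb changed by -2.50, Gp1ba by -1.36 and Gp5 by -1.39, the last with an adjusted p of 0.0383 that was lost when any single array other than CFUe replicate 3 was left out. All were well above background on all 6 arrays. Cd9 (-4.03), Fcer1g (-3.41) and Pecam1 (-3.06) also fell, and Selp, the P-selectin of platelet granules, was not called at -0.89.

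The upstream sequence of a strongly and of a weakly reduced receptor gene is shown, from the RefSeq table of GRCm38.p6, as the 250 bases before the start on the gene's own strand. Capitals mark the letters AGATAA (bound by GATA factors) or GGAAGT (bound by ETS factors such as FLI1) on either strand, which read TTATCT and ACTTCC on the other. For Itga2b (chr11:102469884-102470133, minus strand) an ETS match began 26 bases before the start. For Gp5 (chr16:30310782-30311031, minus strand) GATA matches began 93 and 77 bases and an ETS match 56 bases before it.
Itga2b: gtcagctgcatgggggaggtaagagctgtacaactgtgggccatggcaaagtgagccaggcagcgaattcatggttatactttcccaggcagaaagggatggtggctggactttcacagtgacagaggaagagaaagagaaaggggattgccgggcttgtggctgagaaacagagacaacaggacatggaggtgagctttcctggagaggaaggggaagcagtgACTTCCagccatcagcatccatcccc
Gp5: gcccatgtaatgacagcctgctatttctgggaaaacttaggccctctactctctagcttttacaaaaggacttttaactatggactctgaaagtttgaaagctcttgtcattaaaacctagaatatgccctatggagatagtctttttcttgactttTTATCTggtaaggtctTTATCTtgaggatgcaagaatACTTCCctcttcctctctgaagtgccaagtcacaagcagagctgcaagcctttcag

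The ETS letters stood in 12 and the GATA letters in 5 of the 38 megakaryocyte genes called lower that had a listed start. Over all 11445 tested genes with a start, 26.0% held the ETS letters and 8.26% the GATA letters, so either match is common in windows of this length. Genes called lower held them in 25.8% and 8.63%, and genes called higher in 27.4% and 9.20%. Kruppel-like letters (CCACACCC) stood in 4.93% of the genes called lower, 3.45% of those called higher and 4.05% of all tested. A match describes the letters only.

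Of the 19 receptors and signaling proteins through which platelets are activated, 14 fell, with a median of -3.19 against -2.91 for adhesion receptors, a difference that was not tested. Ptgs1 (cyclooxygenase 1) and Tbxas1 (thromboxane synthase), successive enzymes of thromboxane production, changed by -8.06 and -7.96, and each was well above background on 1 CFUe array; replicate 3 was the highest, at -4.11 and -3.55. P2rx1, an ATP-gated channel of platelets, was at least 10.2-fold lower. Plek (-5.70), Rasgrp2 (-4.75), F2r (-3.56), Rgs18 (-3.22), Syk (-3.20), Lat (-3.19) and Plcg2 (-3.05), which act in signaling below platelet receptors, fell as well. F2r, a thrombin receptor, remained at 1.47, 1.34 and 2.30 in CFUe, above the 75th percentile. The ADP receptor P2ry1 (-0.76) and the integrin activator Fermt3 (-0.88) had adjusted p-values of 0.00497 and 0.000641 and missed the 2-fold limit.

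Granule cargo was lost unequally. Pf4, platelet factor 4, read 4.39, 4.83 and 4.45 in PreMegE and -0.69, -0.28 and -0.60 in CFUe, a 33.8-fold fall with no overlap. Angpt1 (-4.22), Timp3 (-3.85) and F13a1 (-3.82) fell, the latter with CFUe levels of -6.03, -6.78 and -2.23. Ppbp was at least 2.99-fold and Serpine2 at least 4.21-fold lower, but both calls were lost with normexp correction (-0.905 and -0.97). Srgn, the proteoglycan core of granules, and Vwf changed by only -1.47 and -1.26 and stayed above the 75th percentile on all 3 CFUe arrays. Sparc (-0.57) and Mmrn1 (0.57) were not called, and Mmrn1 was not above background on any of the 6 arrays.

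Of the genes of granule and platelet formation, Cavin2 read 3.02, 3.43 and 3.17 in PreMegE and -5.61, -4.08 and -5.62 in CFUe, where 1 array was well above background. Slc35d3, needed for dense granules, was at least 27.6-fold lower, and Rab27b (-3.69), Tpm4 (-3.54) and Nbeal2 (-1.14) fell. Gfi1b, a repressor used by both megakaryocytes and erythroid cells, was the single member that rose, from 4.42, 4.57 and 4.41 to 5.50, 5.70 and 5.84. Flna was not called at -0.96.

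Of the 11 transcription factors of the list, 7 fell and none rose. Meis1 changed by -6.68 (1 CFUe array well above background), Fli1 by -4.50, Mef2c by -4.07 and Etv6 by -2.29. Fli1, an ETS factor of megakaryocytes, read 3.74, 3.88 and 3.72 in PreMegE and -1.29, -1.30 and 0.42 in CFUe. Nfe2 fell by 1.66 and Runx1 by 1.56, although another probe of Runx1 was not called. The GATA1 cofactor Zfpm1 (-0.34) and Mafg (-0.02), the small partner of NFE2, were not called, with adjusted p-values of 0.17 and 0.954.

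Some erythroid transcription factors rose further, led by a nuclear factor I and an E2F protein. Of 31 tested, 7 were called higher, a larger share than the 11.4% of all genes. Another 3 were called lower, against 14.4% of all genes, and the median was 0.06. That median was -0.22 with quantile and -0.45 with spike-in scaling, which gave 5 and 4 genes higher. Nfia rose from 0.48, 0.38 and 0.46 to 3.32, 3.38 and 3.26, and E2f4, which with RB-family proteins restrains cell cycle genes, from 0.49, -0.93 and -0.64 to 2.27, 2.37 and 2.43. Klf1, the activator of beta-globin and many red cell genes, rose 3.23-fold, from 2.09, 2.36 and 2.25 to 3.76, 3.98 and 4.04. Klf3 (2.10), Mbd2 (1.24), Gfi1b (1.21) and E2f2 (1.01) rose as well. Gata1 changed by 0.64, from 2.48, 2.50 and 2.53 to 3.04, 3.21 and 3.19, with an adjusted p of 0.0341 and less than 2-fold. Myb (0.06) and Lmo2 (-0.24) overlapped between the fractions, and Nfe2, Cbfa2t3 (-1.30) and Ikzf1 (-1.07) fell.

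Gata2 went the opposite way to Klf1. It read 5.25, 5.44 and 4.98 in PreMegE and 2.09, 2.26 and 2.41 in CFUe, a 7.84-fold fall with SDs of 0.23 and 0.16 (n = 3 each) in the fractions. The CFUe arrays were close together for both factors, and replicate 3 did not stand out.

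**Figure D2:**
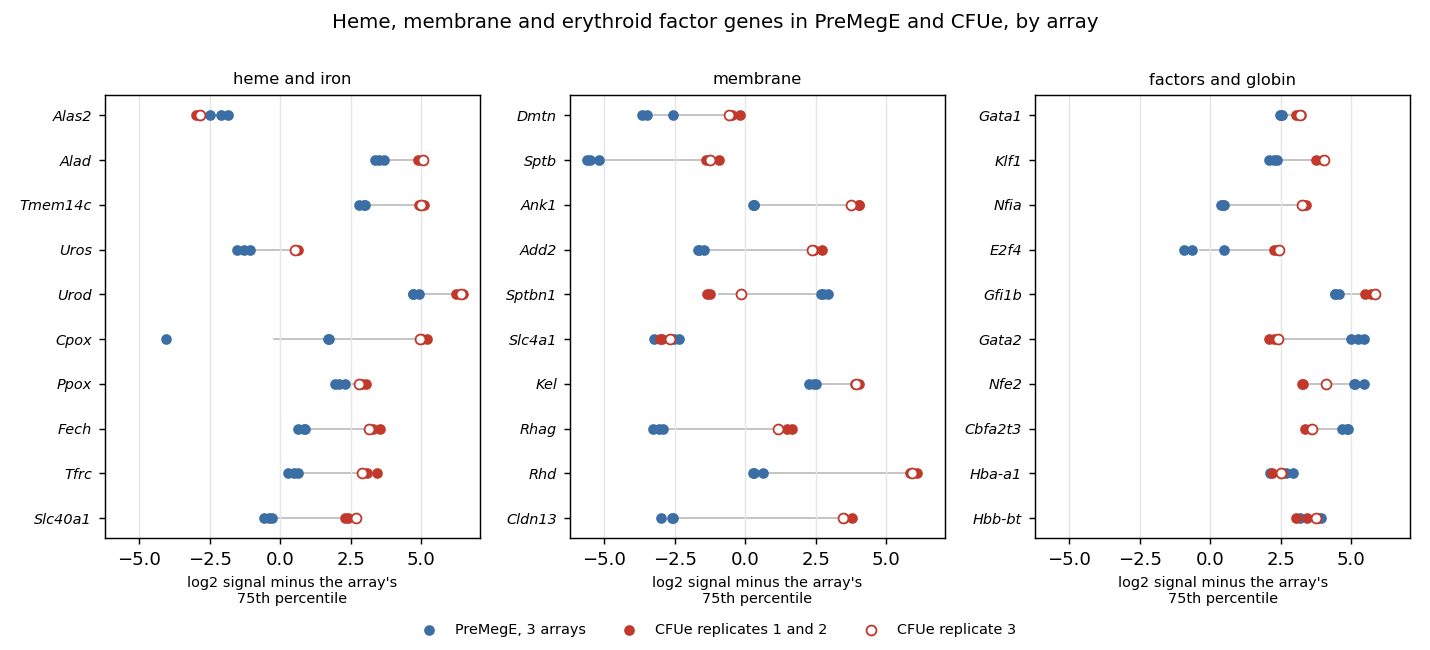
Level of 30 heme, iron, membrane, transcription factor and globin genes on each array, with the axis and symbols of the megakaryocyte plot (log2 signal minus the 75th percentile). Most heme and membrane genes lay 1 to 6 units higher in CFUe, Alas2, Slc4a1 and the globins did not, Sptbn1, Gata2, Nfe2 and Cbfa2t3 lay lower, and Cpox was low on PreMegE replicate 2 alone.

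The erythropoietin receptor rose while feedback genes of cytokine signaling fell. Epor read 3.54, 3.83 and 3.58 in PreMegE and 5.04, 5.25 and 5.29 in CFUe, a 2.91-fold rise (SE of the log2 change 0.244, adjusted p = 4.94e-05). Jak2 (-0.40), Stat5a (-0.20) and Stat5b (-0.51) were not called. Of 30 genes of the pathway, 4 were higher and 13 lower, 7 of the latter among 13 negative feedback genes. Socs3, an inhibitor of JAK kinases, read 2.45, 1.62 and 1.30 and then -4.14, -3.95 and -3.45. Socs1 (-1.88), Spry1 (-3.18), Dusp6 (-1.88) and Pim1 (-2.79) fell too, without overlap. Cish, a STAT5 target, read 2.77 and 3.0 in CFUe replicates 1 and 2 and -1.31 in replicate 3, so its mean change of -0.10 describes none of the arrays. Bcl2l1, which encodes the survival protein BCL-XL, fell by 1.40 at this step and was 4.81 in Ter119 cells, the last erythroid fraction.

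Sphk1 was the largest rise of that list. It read 1.24, 1.58 and 1.69 in PreMegE and 7.09, 7.36 and 7.09 in CFUe, 51.3-fold higher, and encodes the kinase that makes sphingosine 1-phosphate. Erfe, the erythroid hormone that lowers hepcidin, was not well above background in PreMegE and at least 4.95-fold higher. Trib3 was called at 1.98 but overlapped, as replicate 3 read -2.97 against -0.32 and -0.01; the change was 2.91 without replicate 3 and was not called without either of the others.

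The promoter sequences of Epor and Kel are shown because both genes rose and each holds the letters AGATAA once, at nearly the same distance. Other GATA-like letters were not searched, and the Kel sequence also holds TGATAA, which is not marked. In Epor (chr9:21963577-21963826, minus strand) the match began 54 bases before the start, and in Kel (chr6:41704326-41704575, minus strand) 56 bases. Of the 12 membrane genes called higher that had a listed start, 4 held the GATA letters, as did none of the 13 heme genes called higher.
Epor: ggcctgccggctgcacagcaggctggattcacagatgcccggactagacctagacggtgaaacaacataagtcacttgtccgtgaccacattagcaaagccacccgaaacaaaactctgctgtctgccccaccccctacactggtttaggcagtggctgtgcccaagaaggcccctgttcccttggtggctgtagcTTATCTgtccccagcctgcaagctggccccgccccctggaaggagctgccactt
Kel: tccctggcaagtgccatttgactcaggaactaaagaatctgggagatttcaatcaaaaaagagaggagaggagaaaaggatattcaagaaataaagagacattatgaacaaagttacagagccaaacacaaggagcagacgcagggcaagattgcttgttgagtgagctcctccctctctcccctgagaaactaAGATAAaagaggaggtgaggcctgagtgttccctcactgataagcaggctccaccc

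Most enzymes of the heme pathway rose, 6 of 8, the exceptions being Alas2 and Ppox. Of 26 heme genes tested, 15 were called higher and none lower (median 1.28), and the counts were 17 without CFUe replicate 3, 15 with quantile scaling and 10 with spike-in scaling, which also called 1 lower. Fech, which inserts iron, read 0.89, 0.64 and 0.83 in PreMegE and 3.53, 3.31 and 3.15 in CFUe. Uros (1.87), Urod (1.60) and Alad (1.5) rose and Ppox, at 0.82, missed the 2-fold limit. Cpox was called at 5.27, but PreMegE replicate 2 read -4.04 against 1.73 and 1.69, so the change was 3.35 without that array; CFUe read 5.03, 5.19 and 4.96. Alas2, the erythroid enzyme that starts the pathway, was low and not called, at -2.09, -1.84 and -2.48 in PreMegE and -2.98, -2.85 and -2.83 in CFUe, against a mean of 9.97 in Ter119 cells.

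Of 18 transporters and partners of heme, 9 were called higher and none lower. Hebp1, a heme-binding protein, rose by 3.99, Blvrb by 2.86, Tmem14c by 2.09, Abcb6 by 2.08, the heme exporter Flvcr1 by 1.62 and the glycine carrier Slc25a38 by 1.35. Hmox1, which degrades heme, overlapped between the fractions.

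Of 31 iron genes 9 were called higher and 1 lower, with 2 of 10 for uptake and mitochondrial import, 2 of 10 for storage, export and sensing and 5 of 11 for iron-sulfur assembly among the former. Without CFUe replicate 3 the counts were 9 and 2. Tfrc, the transferrin receptor, read 0.29, 0.50 and 0.65 and then 3.43, 3.07 and 2.90. The iron exporter Slc40a1 rose by 2.89, Lyrm4 by 1.86, Glrx5 by 1.82, the ferrireductase Steap3 by 1.33 and the ferritin chain Fth1 by 1.21. Ncoa4, the receptor that sends ferritin to lysosomes, fell by 1.27, although not every probe for it was called. Slc25a37, the mitochondrial iron importer of red cells, was not called at -0.45 and stood at 9.18 in Ter119. Quantile scaling left 6 higher and 3 lower, and spike-in scaling 4 of each.

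Globin transcripts were not called. None of 6 genes tested passed in either direction (limma), and 0 had an unadjusted p under 0.05. Hba-a1 read 2.67, 2.93 and 2.12 in PreMegE and 2.19, 2.56 and 2.52 in CFUe (adjusted p = 0.653), and Hbb-bt 3.84, 3.92 and 3.18 and then 3.04, 3.44 and 3.76 (adjusted p = 0.42), with overlap of the arrays, although another Hbb-bt probe was called lower. Their means in Ter119 were 11.29 and 10.90. Globin genes share near-identical copies, so these probes may read more than the gene named.

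Parts of the red cell membrane were gained and others lost. Of 37 genes, 18 were called higher and 7 lower with a median of 0.90, or 7 and 5 among skeleton genes and 11 and 2 among glycoproteins and blood group proteins. Leaving out CFUe replicate 3 gave the same counts, and spike-in scaling 14 higher and 8 lower. In the skeleton, Ank1 rose from 0.28, 0.30 and 0.33 to 4.03, 4.03 and 3.74 and Add2 from -1.68, -1.45 and -1.63 to 2.43, 2.74 and 2.35. Sptb (4.24, with 1 PreMegE array well above background and another probe not called), Dmtn (2.80) and Mpp1 (1.41) rose, and Epb42 was at least 11-fold higher. The lost members were mostly proteins shared with other cells: Sptbn1, the non-erythroid beta spectrin, read 2.69, 2.92 and 2.75 and then -1.25, -1.36 and -0.14. Add3 (-1.07), Tmod3 (-1.16) and Tpm3 (-1.17) fell. The exception to that description was Tmod1, the tropomodulin of red cells, at least 2.79-fold lower here and 1.81 in Ter119. With normexp correction the calls for Add3, Tmod3 and Tmod1 were lost, and the Tmod1 change was -0.62.

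The largest rises in the membrane list were in surface proteins. Cldn13, a claudin of mouse erythroid cells, read -2.97, -2.60 and -2.55 in PreMegE and 3.50, 3.78 and 3.47 in CFUe, 78.2-fold higher. The Rh protein Rhd went from 0.29, 0.31 and 0.63 to 5.83, 6.08 and 5.93, 46.4-fold higher, and its associated glycoprotein Rhag from -3.07, -3.28 and -2.93 to 1.67, 1.48 and 1.17. Ermap (2.74), Tspan33 (1.97), Xk (1.76), Kel (1.55) and Aqp1 (1.23) also rose. Band 3, Slc4a1, was not called, at -2.35, -2.52 and -3.24 against -3.01, -2.94 and -2.67, and reached 8.94 in Ter119. Slc2a1, the GLUT1 glucose transporter, fell from 0.72, 0.72 and 0.54 to -3.41, -3.81 and -2.89, while Slc2a4 (GLUT4) was at least 4.42-fold higher. The Slc2a4 call was lost with normexp correction (0.97). Car2 rose from 5.38, 5.42 and 5.52 to 7.59, 7.57 and 7.41, and Car7 (2.25), Car1 (1.76), Aqp11 (1.57) and Aqp3 (1.31) rose, 6 of 16 carbonic anhydrases and aquaporins in all with none lower. Quantile scaling gave 5 higher and 1 lower, spike-in scaling 4 of each, and leaving out CFUe replicate 3 gave 6 higher and 2 lower.

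**Figure D3:**
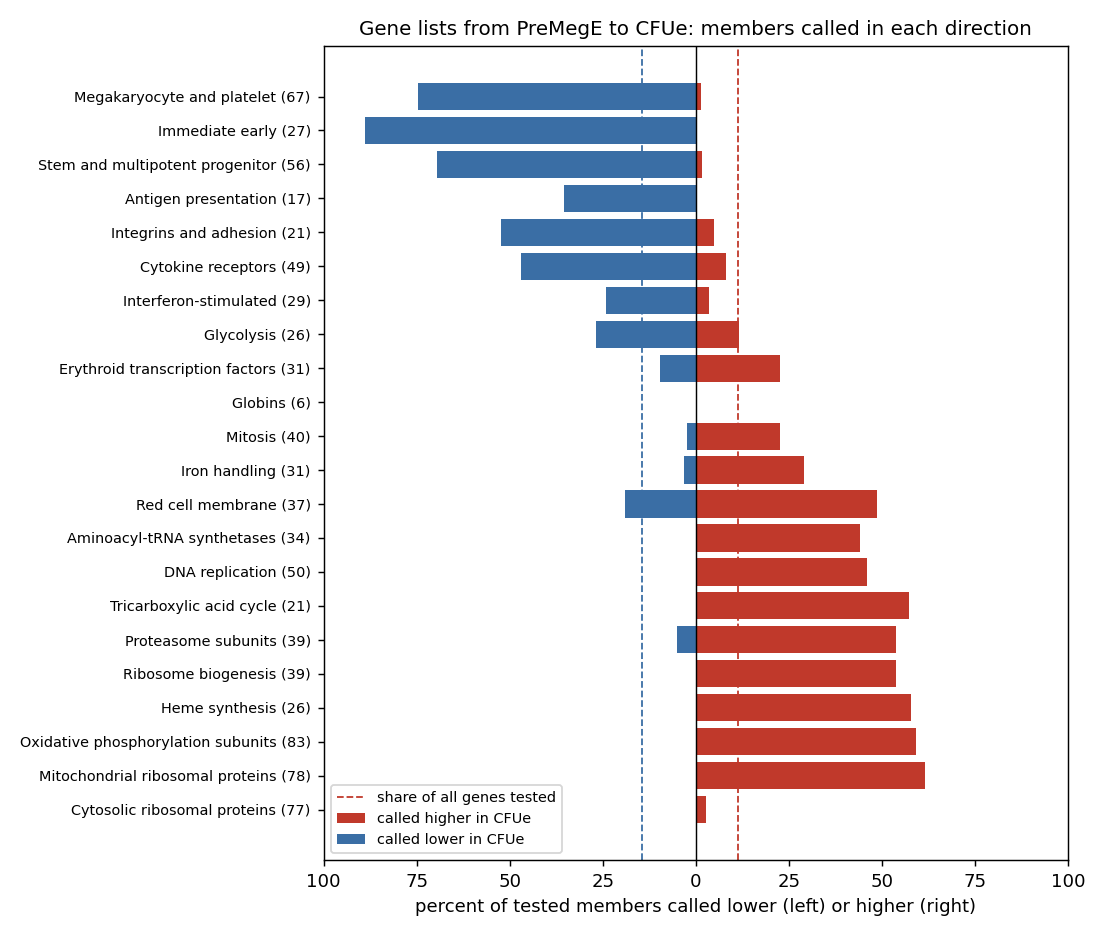
Share of tested members called higher (right, red) or lower (left, blue) in CFUe than in PreMegE for 22 gene lists, in percent, with the number tested in brackets; dashed lines mark the shares of all genes, 11.4% higher and 14.4% lower. Megakaryocyte, stem cell and immediate early lists extend to the left, mitochondrial, heme and proteasome lists to the right, and globins show no bar.

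With the percentile scaling, a broad set of growth genes was called higher in CFUe. Of 83 oxidative phosphorylation subunits 49 were called higher and none lower (median 1.1), as were 48 of 78 mitochondrial ribosomal proteins (1.08), 21 of 39 ribosome biogenesis factors (1.01) and 12 of 21 enzymes of the tricarboxylic acid cycle (1.07). These families moved by about 1 log2 unit, so their counts depended on the scaling. With quantile scaling the counts were 4, 18, 4 and 5, with spike-in scaling 5, 9, 0 and 3, and no member was called lower in either. Over all 14315 genes, 1197 were called higher with quantile and 485 with spike-in scaling. The share was below that of all genes for oxidative phosphorylation with quantile and for ribosome biogenesis with spike-in scaling. The family medians remained above 0, at 0.62, 0.73, 0.69 and 0.65 with quantile and 0.59, 0.58, 0.50 and 0.57 with spike-in scaling. The medians of all genes were 0.12 and -0.32 under the same scalings.

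Examples of these families were close on all arrays. Cyc1, a subunit of respiratory complex III, read 4.08, 4.17 and 4.12 in PreMegE and 5.64, 5.99 and 5.80 in CFUe. Mrps22 rose by 1.84, Idh3a by 1.70, Dlat by 1.79, and the nucleolar protein Mybbp1a from 2.97, 2.80 and 2.80 to 4.18, 4.36 and 4.23. Nucleophosmin, Npm1, rose by 1.20 with another probe not called. CFUe replicate 3 did not stand apart here, with array medians of 0.94, 1.14 and 1.19 for the respiratory chain and 0.95, 1.02 and 1.0 for ribosome biogenesis.

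Cytosolic ribosomal proteins behaved differently from ribosome biogenesis factors. Only Rpl30 (1.04) and Rpl31 (1.03) of 77 were called, neither without CFUe replicate 3 (1.0 and 0.99), and the median of 0.34 turned to -0.06 with quantile and -0.17 with spike-in scaling, so it had no settled direction.

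Proteasome subunits were called higher in 21 of 39 cases (median 1.01), a group that also holds Psmc3ip, which shares the prefix but is no subunit, and the count was 5 with quantile and 0 with spike-in scaling. Psmb8 (-1.38) and Psmb9 (-1.01), which replace standard catalytic subunits in the immunoproteasome, were the 2 members that fell, while Psmb2 (1.33) and Psmd6 (1.5) rose. Of 34 aminoacyl-tRNA synthetases 15 rose, Hars most clearly, from 0.63, 0.88 and 0.90 to 3.02, 2.80 and 2.65, with 8 and 5 under the other scalings. Nucleotide and one-carbon metabolism had 14 of 31 genes higher (8 and 2 under the other scalings, 12 without CFUe replicate 3), led by the folate enzymes Mthfd1 (2.44) and Mthfd2 (2.30).

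DNA replication genes rose, with none lower, in 23 of 50 cases (median 0.90). The licensing factors Cdc6 and Orc1 led, Cdc6 from 0.07, 0.38 and 0.44 to 2.23, 2.04 and 2.41 and Orc1 by 1.77, with Pole3 (1.65), Fen1 (1.58), Rrm1 (1.52) and Gmnn (1.51). Quantile scaling called 11 and spike-in scaling 9, and 20 were called without CFUe replicate 3. Ccne1, the cyclin that drives entry into S phase, moved far more than the list, from 0.99, 1.28 and 1.22 to 5.27, 5.48 and 5.50, 19.1-fold. Of the CDK inhibitors, 3 of 7 fell: Cdkn1a (p21) from 2.32, 1.89 and 1.19 to -2.67, -2.85 and -3.35, Cdkn2d by 2.75 and Cdkn1b by 1.15. Mitotic genes were called higher in 9 of 40 cases and in 16 without replicate 3, but in 3 with quantile and 1 with spike-in scaling, with array medians of 0.80, 0.83 and 0.44. Cenpa (1.92) and Plk1 (1.31) rose, and Cdc25b fell by 2.52.

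Glycolysis had 3 genes higher and 7 lower of 26, and 12 lower with spike-in scaling. Pkm fell from 2.40, 2.30 and 2.51 to -4.44, -4.26 and -1.38, and Pklr, the pyruvate kinase of liver and red cells, rose from -3.27, -2.89 and -2.74 to 1.01, 0.87 and 0.65. The hexokinases Hk3 (-2.19) and Hk2 (-1.40) and Aldoc (-2.33) fell, Pfkm (1.49) and the lactate carrier Slc16a1 (2.0) rose, and Gapdh (0.45) was not called. Fads3, a member of the fatty acid desaturase family, was the largest rise of all genes well above background on the 6 arrays, from -4.04, -4.30 and -4.20 to 2.59, 2.93 and 2.27, 109.8-fold (adjusted p = 4.05e-13). Fads2 rose by 1.86 and Scd1 was at least 5.25-fold higher.

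Metallothioneins rose and stress-inducible heat shock genes fell. Mt2 went from 2.39, 2.49 and 2.32 to 7.55, 7.83 and 7.63, and Mt1 rose by 3.06, with 13 of 30 antioxidant genes higher and 2 lower (9 and 3 with quantile, 7 and 3 with spike-in scaling), including Prdx2 (1.66) and Txnrd2 (1.84) among the former and Gstm1 (-2.48) among the latter. The stress-inducible Hspa1a read 6.22, 7.97 and 7.37 in PreMegE and 2.30, 2.49 and 2.52 in CFUe, and Hspa1b (-5.00) and Hspb1 (-5.18) fell with the same spread among the PreMegE arrays, where replicate 1 was the lowest. Constitutive folding proteins rose instead, Cct8 by 1.46, Hspa9 by 1.33 and Hspd1 by 1.27, so the chaperones had 9 higher and 5 lower of 26, or 2 and 6 with quantile and 0 and 7 with spike-in scaling. Of 15 BCL2-family genes, Pmaip1 (-4.30), Bcl2 (-2.55), Bbc3 (-1.41), Bcl2l1 and Mcl1 (-1.32) fell and Bcl2l11 (1.63), Bid (1.08) and Bax (1.01) rose, so the falls took in both protective members (Bcl2, Mcl1) and death-promoting ones (Pmaip1, Bbc3), and the 3 rises were in death-promoting members. Bcl2l11, Bid and Bax all lost the call with spike-in scaling, and normexp left 1 gene of the family higher. Without CFUe replicate 3 the call for Bbc3 was lost (-0.77), as was that for Bax (1.03, adjusted p = 0.0534).

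Genes of stem and multipotent cells were lost about as widely as those of megakaryocytes. Of 56 tested, 39 were called lower and 1 higher (median -2.69), and 42 were lower without CFUe replicate 3. Normexp correction gave 29 lower and a median of -1.15. The array medians were -2.85, -2.57 and -1.63, the last for replicate 3. Ctla2a, a protease inhibitor gene, fell from 6.88, 6.83 and 6.24 to -3.09, -3.24 and -0.49 and Ctla2b fell by 8.68, the largest falls of all genes measured on the 6 arrays. Cd34 fell from 3.83, 3.78 and 3.70 to -3.20, -3.85 and 0.60, and Erg by 5.56 with 1 CFUe array well above background. Mycn was at least 98.0-fold, Tie1 at least 25.1-fold and Tek, the angiopoietin receptor, at least 19.7-fold lower. Hlf (-3.03), Sox4 (-3.96), Hoxa7 (-2.71) and Hoxa9 (-1.98) fell. Mllt3 rose by 1.47, with some of its 5 probes not called, and Flt3 (0.29), Lyl1 (-0.25) and Mecom (-0.84) overlapped.

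Immediate early genes fell in 24 of 27 cases and rose in none (median -2.54). Klf6 read 7.46, 7.99 and 7.80 in PreMegE and 2.44, 2.20 and 2.35 in CFUe, 42.8-fold lower, and Klf4 5.09, 6.03 and 5.81 and then 0.08, 0.06 and 0.21. Fos fell by 3.12, Jun by 3.32, Fosb by 3.79, Dusp2 by 4.45 and Zfp36 by 3.07. Here CFUe replicate 3 was lower than its partners, with array medians of -2.23, -2.26 and -3.32, and 22 genes were called lower without it. For Egr1 it read 3.41 against 5.49 and 5.29, and for Nr4a1 -0.50 against 2.93 and 2.74. These genes are known for their rapid induction when cells are stimulated.

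**Figure D4:**
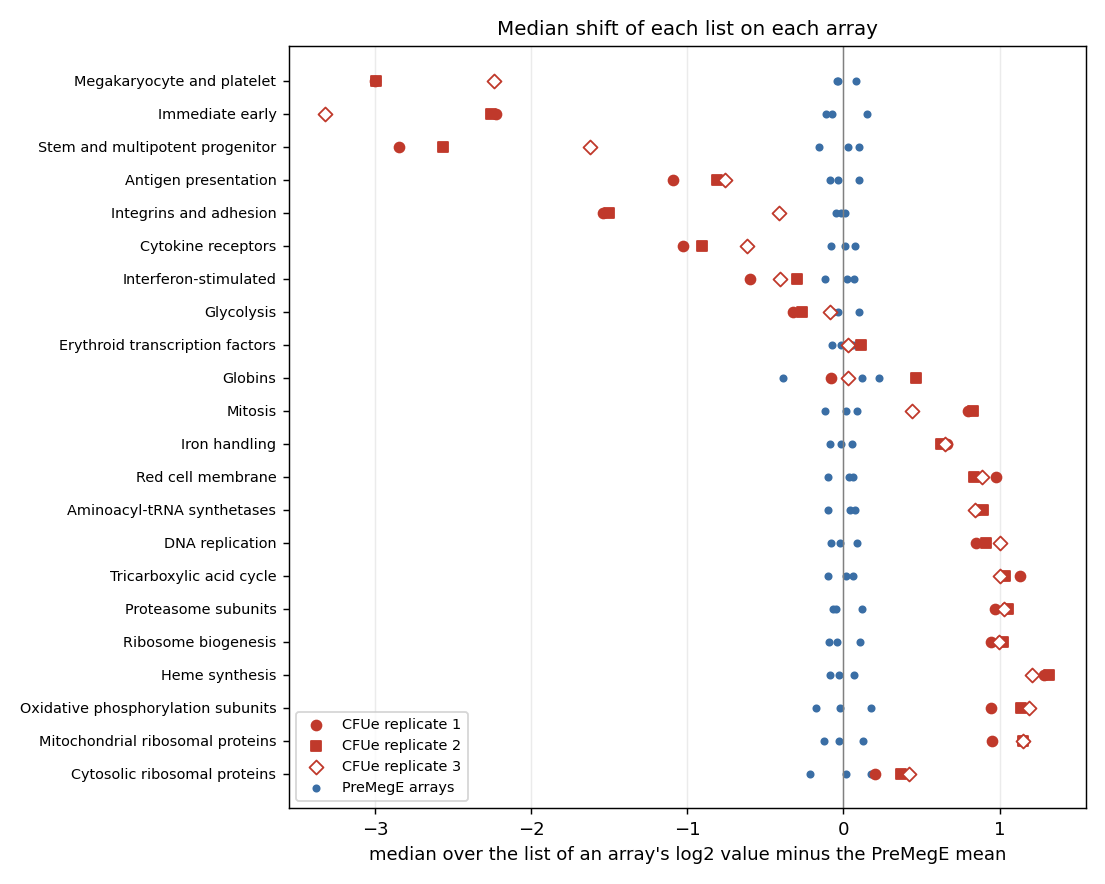
Median over each of the 22 lists of an array's log2 value minus the PreMegE mean of the same gene, for the 3 CFUe arrays (red) and the 3 PreMegE arrays (blue). CFUe replicate 3 (open diamonds) lay nearer to PreMegE than its partners for megakaryocyte, stem cell and integrin genes, further away for immediate early genes, and close to them for heme and respiratory genes.

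Receptors for other cytokines were withdrawn alongside. Of 49 receptor chains 23 fell and 4 rose, or 15 and 2 with normexp. Falls included Pdgfrb (-4.99) and the common beta chain genes of the interleukin 3 family, Csf2rb2 (-4.01) and Csf2rb (-3.48). Tgfbr2 fell by 2.27. Besides Epor, Igf2r rose from -1.42, -1.12 and -1.15 to 1.64, 1.82 and 1.72 and Ifngr2 by 1.18, with 0.19 in replicate 3 against 1.14 and 1.19. The call for Il7r was lost without replicate 3 (0.60), and 1 of the 6 arrays was well above background. Of 23 chemokine and homing genes 9 fell, with Ccl4 (-5.06), the sphingosine 1-phosphate receptor S1pr1 (-4.55) and Ccl2 (-3.63) in the lead, and none rose. Integrin chains fell in 11 of 21 cases, or 6 with normexp, and Itga5, part of the fibronectin receptor, rose by 1.12. Among RGS proteins, which shorten G-protein signals, Rgs1 fell from 5.32, 5.72 and 5.58 to -2.17, -2.49 and -0.73 and Rgs2 fell by 5.71, while Rgs10 rose from 3.09, 3.16 and 2.85 to 5.08, 5.27 and 5.13.

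Regulators of other lineages fell in 12 of 29 cases, or 7 with normexp, and rose in none. Spi1 (PU.1) fell from -2.34, -2.06 and -2.09 to -6.80, -6.34 and -4.94, and Cebpa from -0.93, -0.86 and -0.91 to -3.79, -3.97 and -2.26. For Spi1, CFUe replicates 1 and 2 lay below the lowest detected signals of their arrays (-4.50 and -5.03). Its change was -3.86, and -1.38 under the alternative with the smallest fall. Runx2 (-5.71), Gfi1 (-3.24), Irf8 (-2.63) and Gata3 (-2.04) fell, Irf8 with -4.47, -4.47 and -0.99 in CFUe. Replicate 3 was the highest CFUe array for Spi1, Cebpa, Runx2, Gfi1 and Irf8. Antigen presentation genes fell in 6 of 17 cases, or 10 with quantile and 13 with spike-in scaling. Interferon-stimulated genes fell in 7 of 29, or 9 and 14, led by Ifitm1 (-3.89), and GIMAP GTPases of lymphocytes in 3 of 7, led by Gimap1 (-5.66).

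Families with a mixed outcome show where single members changed. Of 274 solute carriers 43 rose and 46 fell, shares of the order of the background. The glutamine transporter Slc38a5 rose from 2.40, 2.69 and 2.76 to 5.91, 6.15 and 6.03, the nucleoside transporter Slc29a1 from 0.44, 0.45 and 0.43 to 2.80, 2.88 and 2.78 and the metal importer Slc39a8 by 3.24, while the vesicular monoamine transporter Slc18a2 fell by 4.24. Of 24 tetraspanins 4 rose, Tspan8 by 3.94, and 9 fell, Cd9 among them. Of 19 Hox genes 7 fell, or 2 with normexp. Neither Myc (-0.60) nor Ezh2 (0.59) was called, in lists where 3 of 13 MYC network genes and 2 of 28 genes of DNA methylation and Polycomb fell and none rose.

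The largest rises outside the lists were in genes of varied function. Mboat2, Nxpe2, Cachd1, Abcg4, Hpn, Ptpn13, Fgd6 and Sqor rose by 5.55, 5.54, 5.48, 5.46, 5.42, 5.24, 5.13 and 5.12. Sqor, a mitochondrial oxidoreductase of sulfide, read -2.26, -2.18 and -2.17 and then 3.04, 3.07 and 2.66. Not well above background on any PreMegE array were Plpp1 (at least 53.8-fold higher), Pdia2 (34.6), Arhgdig (31.7), Rnf128 (26.5), Nxpe4 (26.3), Enpp3 (20.4), Cyp1a1 (14.1), F2 (12.1) and Cecr2 (11.4), with values in brackets as lower bounds. The other large falls were Vim (-6.63), Cd93 (-6.54), Fes (-5.95), Myo1g (-5.76), Serpinb1a (-5.71) and Adgrg3 (-5.67). Vimentin, Vim, read 0.98 in CFUe replicate 3 against -1.50 and -2.12, and the same array was the highest for the other 5. Among genes that no CFUe array measured above background were Robo3, at least 229.6-fold lower, and Dgkg, C030034L19Rik, Hacd4 and Gucy1a1, with bounds of 28.4, 25.1, 21.6 and 20.9-fold.

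Neutrophil, eosinophil, mast cell and basophil markers moved with the losses, while macrophage, B, T and NK cell markers were mixed. Neutrophil markers were called lower in 9 of 14 cases and higher in 1, and in 13 without CFUe replicate 3. Their summed linear levels were 116, 54.0 and 104 in PreMegE replicates 1 to 3 and 6.63, 5.97 and 45.7 in CFUe replicates 1 to 3. Mpo had no value on PreMegE replicate 2, so the sum of that array lacks it and is too low to compare. It read 5.92 and 5.83 on the other PreMegE arrays and 1.11, 0.75 and 4.29 in CFUe. Mast cell and basophil markers fell in 6 of 10 cases (5.63 to 7.34 against 0.60 to 1.1), and eosinophil markers in 6 of 7, with none well above background on all 3 CFUe arrays. With normexp either list had 2 lower. Macrophage markers summed to 1.95 to 2.74 in PreMegE and 5.85 to 7.48 in CFUe, an increase carried by Slc40a1, while Vcam1 and Adgre1 were not well above background in CFUe. B cell markers summed to 4.59 to 5.62 against 1.56 to 4.71, the highest for replicate 3. Of 9 tested, 1 was called higher and 1 lower, with a median change of 0.45. T and NK markers fell in 3 of 10 cases and rose in 1, with a median change of 0.14. Nkg7, which fell, read 5.83 and 5.63 in PreMegE with no value on replicate 2. The part of these cells in the falls of shared genes was not tested.

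Late erythroblast markers summed to 21 to 25.4 in PreMegE and 66.0 to 69.3 in CFUe, with 4 of 9 called higher and 1 lower, and were even across the CFUe arrays. All 10 megakaryocyte markers fell, with sums of 51.2 to 62.5 in PreMegE and 5.08 to 6.92 in CFUe, and 8 of them were still well above background on all 3 CFUe arrays.

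Levels along the erythroid fractions differed between the groups. Megakaryocyte genes had a median level of 0.03 in KLS, the stem cell fraction, 1.51 in PreMegE, -2.96 in CFUe and -0.62 in Ter119. Stem cell genes fell at each of the first steps, from 1.31 to -0.59 and -3.46. Globins were at -3.53 in PreMegE and -3.36 in CFUe and reached 5.39 in Ter119, whereas heme genes were at 1.38, 1.37, 2.75 and 3.01. Ribosome biogenesis had its highest median in CFUe, 3.47, and all 39 genes were lower in Ter119, where the median was -0.19. Respiratory subunits likewise went from 4.87 to 5.86 and then 3.97, lower in Ter119 than in CFUe for 80 of 83. Ter119 arrays also carried S100a9, a neutrophil gene, at a mean of 10.85, and its part in the higher megakaryocyte and stem cell medians there was not tested.

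**Figure D5:**
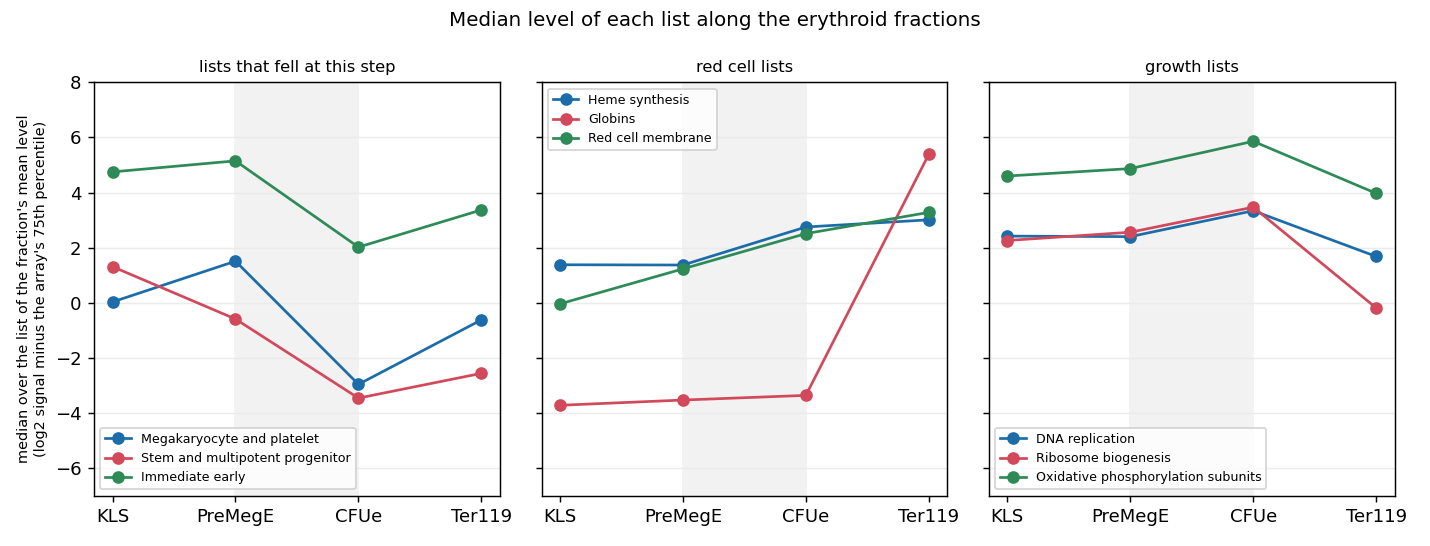
Median over each list of the mean level of its genes in KLS, PreMegE, CFUe and Ter119 (3 arrays each), in log2 signal minus the 75th percentile; the shaded band marks the step from PreMegE to CFUe. Megakaryocyte and immediate early lists dropped within the band, heme and growth lists rose within it, and the globin list rose only after it.

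The step was then set against the corresponding myeloid step, from PreGM to GMP, which uses other arrays. The difference between the changes was called for 3158 of 14315 genes (22.1%), 1352 higher and 1806 lower. The myeloid step had 658 genes higher and 949 lower. Of the genes called in both steps, 94 rose in both, 516 fell in both, 85 rose at the erythroid and fell at the myeloid step and 199 the reverse. The erythroid step thus shared more of its losses than of its gains with the myeloid step, by count.

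Loss of megakaryocyte genes was greater at the erythroid step, with the difference called lower for 44 of 67 genes and higher for 5, although 23 of them also fell from PreGM to GMP (median -0.39). Fli1 was not called at the myeloid step (0.04). Stem cell genes were lost at both, 31 of 56 at the myeloid step, and the difference was called lower for 23. CFU-E stage genes fell in 10 of 12 cases from PreGM to GMP and the difference was called higher for all 12, and the corresponding counts were 14 of 26 for heme genes and 20 of 37 for the membrane. Aqp1 fell by 5.63 at the myeloid step and Epor by 2.50. The difference was called higher for 13 of 50 DNA replication genes and 16 of 39 ribosome biogenesis genes, and lower for none of them. List counts of the difference were made with the percentile scaling only, on which the erythroid counts of these growth genes depended. Mitosis had 1 higher and 3 lower of 40, and mitotic genes had a median change of 0.71 at the myeloid step, close to the 0.69 here.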

How the data were processed

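Total RNA of 7 bone marrow fractions was measured on 1-color Agilent whole-mouse arrays, 3 per fraction, and the arrays limit the precision by their number. The deposited files hold intensity values of Feature Extraction 10.7.1.1, background-subtracted by the authors' scanner software, and a deposited table holds log2 values, which the authors had normalized and which served as an alternative. Control spots and outlier spots were left out, spots of 1 probe were averaged, and log2 intensity minus the 75th percentile of each array was used (pandas 2.3.3, numpy 2.4.6). A probe entered the test when any fraction had it well above background 3 times of 3, which kept 29532 of 41174, with limma 3.58.1 (R 4.3.3) on all 21 arrays with 7 means and no block. Calls needed a 2-fold change or more with an adjusted p below 0.05. Accessions were named through RefSeq, which gave 1 symbol to 26690 probes, and a gene took its brightest probe over the 21 arrays. Where no array of a fraction was above background, the fold is a lower bound against the lowest detected signal. Such a bound holds for the main background subtraction only. The procedure was tested on simulated data.

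The lists and their members were chosen with earlier results of these data known. Named genes were the called members with the largest changes per role and defining members, the 15 largest rises and falls measured on all 6 arrays, the 10 largest bounds on either side, and up to 10 genes with opposite changes in the erythroid and myeloid steps. Some genes that met the rule are not reported here. Alternatives were other scalings, background correction, filters, slide and replicate blocks, a Y-linked covariate and leaving out each array.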

Additional observations from a re-analysis of the deposited data

Results flagged for a closer look

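The genes below were called in opposite directions at the erythroid step (PreMegE to CFUe) and the myeloid step (PreGM to GMP), and the difference between the steps was itself called by limma. Prg2, a granule protein of eosinophils, had a difference of -12.67, from changes of -3.77 and 8.90. Ear1 (-10.03), Ear6 (-9.45), Elane (-8.81), Ms4a3 (-8.31) and S100a8 (-8.17), which encode granule or surface proteins of granulocytes and their precursors, had the same signs. Ptgs1 (-10.89) and Vcam1 (-9.19) did the same, as did the kinase gene Dgkg (-7.82). No CFUe array was well above background for Ear1, Ear6, Vcam1 or Dgkg, and Ear6 was so on 1 PreMegE array, so the sizes of these differences rest on values at background. The erythroid changes of Ear1, Ear6 and Vcam1 were -0.55, -0.04 and -0.74 with normexp correction and were not called. Fads3 was the single reverse case at 10.12, with a rise of 6.78 and a fall of 3.34. Without CFUe replicate 3, which carried more granulocyte transcripts than its partners, the values were -12.63 for Prg2, -11.88 for Ptgs1, 10.28 for Fads3 and -8.30 for Dgkg. For S100a8 the fall at the erythroid step came to a change of -2.21, was not called without CFUe replicate 1 or 2, and came to -3.04 without replicate 3.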

How the results depend on the processing

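Against 2869 probes higher, 4398 lower and 5961 in the difference between steps, spike-in scaling gave 838, 7214 and 19161, 1 probe per gene 1638, 2066 and 3198, and no minimum fold 7921, 7044 and 10120. Normexp correction of the median pixel signal, chosen after seeing the data, gave 2077 lower; the planned form on mean signals was not run, as that column was not used here. Quantile scaling, spike-in scaling, the authors' table and no minimum fold gave, for genes called higher, 11, 9, 11 and 44 in DNA replication, 4, 0, 3 and 38 in ribosome biogenesis, 18, 9, 18 and 76 among mitochondrial ribosomal proteins and 4, 5, 7 and 76 in oxidative phosphorylation. The cause was not tested, except that dropping the fold limit admits smaller changes.

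Leaving out 1 array at a time gave 2640 to 3131 probes higher, 4130 to 4668 lower and 5559 to 6455 in the difference. Genes called ranged from 48 to 52 (megakaryocyte), 37 to 42 (stem cell), 22 to 25 (immediate early), 15 to 17 (heme), 18 to 18 (membrane), 19 to 22 (replication), 17 to 27 (ribosome biogenesis), 40 to 55 (mitochondrial ribosome) and 44 to 54 (oxidative phosphorylation). With the replicate number as a block, 2849 probes were higher and 4400 lower and the difference had 5950. Same-numbered samples deviated together with correlations of -0.118, 0.0176 and 0.0863, so they shared only a number. Dim probes limit falls to bounds. Of 251 called genes named, 196 kept their call and direction under all alternatives that have a test. None reversed and 30 lost the call with spike-in scaling. Genes were named largely for the size of their change, so these counts do not describe calls in general. Calls near the 2-fold limit that were lost when 1 array was left out included those of Add3, Bax, E2f2, Ikzf1, Nbeal2, Psmb9, Psmc3ip, Rpl30 and Rpl31.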
